A study of Mus musculus with 7 samples.

Results

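The enzymes described here make, attach and remove sialic acid and fucose, and start, branch and extend O-linked sugar chains. They were chosen by gene symbol alone: the St3gal, St6gal, St6galnac, St8sia, Fut, Galnt, Gcnt, B3gnt and Neu families, together with Gne, Nans, Nanp, Cmas and Npl. The rule found 66 of the 24964 genes listed, and it uses no measured value. Expression was measured by RNA sequencing of whole uterus from 12-week-old mice, all recorded in diestrus, the resting phase of the estrous cycle. The 3 control libraries carried the genotype Pgrcre/+ and are numbered 1, 2 and 4. Another 4 libraries, numbered 1 to 4, carried Pgrcre/+ together with Foxl2LsL/+ and are called Foxl2-LsL here. The Pgr-Cre allele, present in all 7 libraries, places Cre recombinase under the progesterone receptor gene, so it acts in the cells of the uterus and of other tissues that use that gene. By its title the study addresses raised FOXL2, a transcription factor of the forkhead family. The labels do not say whether each library is 1 animal or a pool, so p-values measure the spread between these libraries.

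Mucin-type O-glycans begin when a GALNT enzyme places N-acetylgalactosamine on serine or threonine of a protein in the Golgi. Galactose then gives core 1, which can be branched by GCNT enzymes into core 2, lengthened by B3GNT enzymes, or closed early by sialic acid. Sialic acid and fucose sit at the outer ends of the chains, where lectins and microbes bind them. In the uterus these sugars coat the luminal epithelium and its mucins, which the embryo meets at attachment, and ovarian steroids are known to alter them.

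Levels are given in FPKM, fragment counts divided by gene length in kilobases and scaled to library size, which allows levels of different genes to be compared. Log2 fold changes are differences between the group means of log2(FPKM + 1), Foxl2-LsL minus control. They understate the change of genes near or below 1 FPKM. A change written as a number of folds is the ratio of the group mean FPKM, without the added 1, so it can differ from the log2 fold change. A gene was said to rise or fall where its limma adjusted p (Benjamini-Hochberg over all 13334 genes tested) was under 0.05. Between about 35500000 and 51700000 fragments per library lay on the listed genes. Foxl2 itself was at 14.4 ± 4.32 FPKM (SD, n = 3) in controls and 14.7 ± 1.86 FPKM (SD, n = 4) in Foxl2-LsL libraries (log2 fold change 0.06, limma adjusted p 0.818). The exact two-sided permutation p of this difference was 0.971, where 3 against 4 libraries cannot go below 0.0571. The listed Foxl2 level was thus not higher in the Foxl2-LsL libraries beyond their spread. Whether it would count RNA from the Foxl2LsL allele is not known, so it does not show whether FOXL2 was raised. Every direction below is that of the libraries as labelled. Hoxa10 and Hoxa11, Krt8 and Myh11, which mark uterine stroma, epithelium and muscle, were all present. Oviduct markers summed to 4.13, 296 and 22.1 FPKM in controls 1, 2 and 4 and to at most 15.9 FPKM in the Foxl2-LsL libraries. Ovgp1 alone was 291 FPKM of the sum in control 2, where Foxj1 was at 3.78 FPKM and Tekt1 and Dnah5 below 1 FPKM. Control 4 stood apart in the listed enzymes: 26 of the 46 tested members (56.5%) lay beyond the range of the other 6 libraries there, 17 above and 9 below, against 41.2% of all tested genes.

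Of the 66 genes, 46 had a mean of at least 1 FPKM over the 7 libraries and were tested. In the Foxl2-LsL libraries 10 of them rose and 10 fell, 43.5% of the 46. Among all tested genes 40.6% passed the same threshold, 16.7% higher and 23.9% lower, so the share of changed members was near that of the transcriptome. The groups did not overlap in 20 of the 46 (43.5%), against 47.6% of all tested genes. The median log2 fold change of the members was -0.09 and that of all tested genes -0.05. The risers were Fut9, St6galnac5, B3gnt8, Galnt15, Galnt5, Gcnt3 and Galnt7, with smaller rises of B3gnt2, Galnt4 and Gcnt1. The fallers were Npl, St6galnac4, Fut4, St3gal1, St8sia4, Nans and St3gal3, with smaller falls of St3gal2, Galnt2 and Galnt1. The GALNT, ST6GALNAC and fucosyltransferase families held members that passed in both directions. With a library left out at a time, the count of members higher ranged from 4 (without Foxl2-LsL 4) to 12 (without control 1), and was 5 without Foxl2-LsL 1 or 3. The count of members lower ranged from 7 (without Foxl2-LsL 3) to 16 (without control 1). Without control 4, 9 were higher and 11 were lower. Because whole tissue was sequenced, fewer cells of a type and less RNA per cell cannot be told apart.

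**Figure D1:**
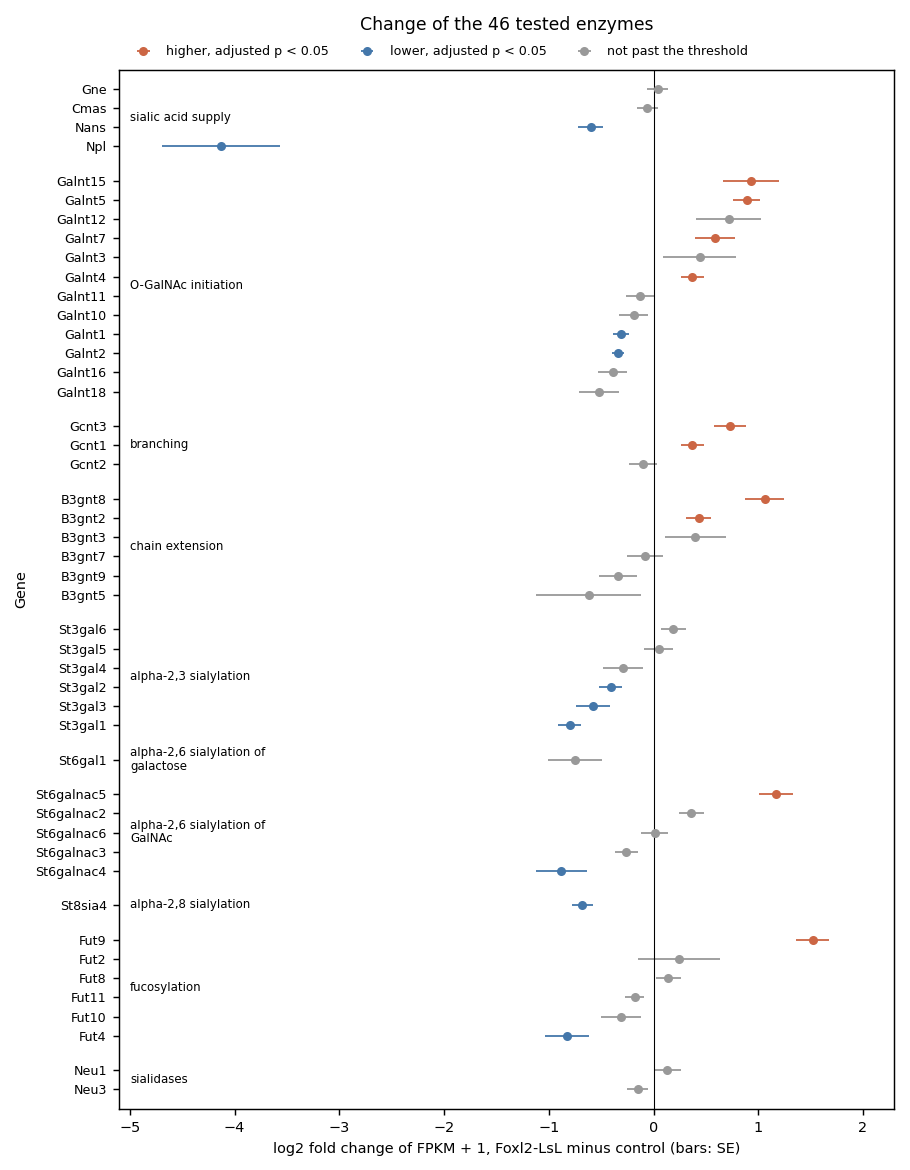
Each point is the log2 fold change of FPKM + 1 (x axis, Foxl2-LsL minus control) of 1 of the 46 tested enzymes (y axis, grouped by family), with its standard error as a bar. The colours separate the 10 enzymes past the threshold upward and the 10 downward from the rest, and Npl at -4.13 lies farthest from 0.

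The promoter windows that RefSeq gives on GRCm38.p6 (250 bases before to 50 after a start) matched 46 of the 66 members with 66 windows. These 46 are not the 46 tested members. Among the called genes, Fut9, St6galnac5, Gcnt3, Galnt4, St3gal1, Nans, St3gal2, Galnt2 and Galnt1 had no window and were not searched. On both strands 3 motifs were searched. The palindromic estrogen response element, GGTCA and TGACC with any 3 bases between, was in 0 of the 66 windows and in 0.07% of all 32851. The forkhead core GTAAACA was in 3.03% of member windows (Neu2 and St6galnac6) and in 3.65% of all, and TATAAA in 3.03% (Gcnt1 and Neu2) against 13.6%. None of the windows of Npl, St6galnac4, B3gnt8 and Galnt15 held any of the 3. The 250 bases before the start of these 4 are printed because they belong to the largest falls and rises with a single window, so that these 4 can be compared. They are written 5′ to 3′ on the strand of the gene, and capitals mark CpG dinucleotides. The windows are chr1:153549715-153549964 (minus) for Npl, chr2:32586828-32587077 (plus) for St6galnac4, chr7:25627374-25627623 (plus) for B3gnt8 and chr14:32028853-32029102 (plus) for Galnt15.
Npl: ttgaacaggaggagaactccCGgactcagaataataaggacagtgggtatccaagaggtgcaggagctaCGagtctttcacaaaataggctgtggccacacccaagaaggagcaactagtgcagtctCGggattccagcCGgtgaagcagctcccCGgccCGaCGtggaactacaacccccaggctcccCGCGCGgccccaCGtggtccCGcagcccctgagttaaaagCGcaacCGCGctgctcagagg
St6galnac4: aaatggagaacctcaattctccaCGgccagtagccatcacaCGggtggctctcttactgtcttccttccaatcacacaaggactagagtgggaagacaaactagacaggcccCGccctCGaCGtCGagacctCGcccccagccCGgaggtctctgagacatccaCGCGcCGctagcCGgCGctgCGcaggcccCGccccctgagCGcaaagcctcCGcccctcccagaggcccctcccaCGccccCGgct
B3gnt8: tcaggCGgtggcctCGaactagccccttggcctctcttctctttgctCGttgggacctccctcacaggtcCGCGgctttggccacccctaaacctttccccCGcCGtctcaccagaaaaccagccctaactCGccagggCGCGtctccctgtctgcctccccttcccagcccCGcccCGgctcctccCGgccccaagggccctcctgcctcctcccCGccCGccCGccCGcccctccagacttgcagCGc
Galnt15: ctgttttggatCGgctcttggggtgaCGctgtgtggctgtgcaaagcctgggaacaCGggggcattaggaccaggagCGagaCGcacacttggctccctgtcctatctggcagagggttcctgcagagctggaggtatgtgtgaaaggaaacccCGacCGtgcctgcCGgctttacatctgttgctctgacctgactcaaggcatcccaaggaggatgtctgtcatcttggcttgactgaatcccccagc
They hold 15, 19, 18 and 8 CpG, in that order, where the median was 11 over the member windows and 6 over all windows. The falling and the rising genes thus both include a window with many CpG, and none of these counts separates them.

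Among 4 tested genes of sialic acid supply, 2 fell, Npl at the breakdown end and Nans in synthesis. Npl, the lyase that cleaves free sialic acid to N-acetylmannosamine and pyruvate, was at 27.1, 17.4 and 117 FPKM in controls 1, 2 and 4. Foxl2-LsL libraries 1 to 4 held 1.501, 1.45, 1.04 and 1.08 FPKM of it. Every control lay above every Foxl2-LsL library, and control 4 was far above the other controls. Npl fell 42.6-fold as a ratio of mean FPKM, which control 4 raised (log2 fold change -4.13, SE 0.56, limma adjusted p 0.00142). Without control 4 the log2 fold change was the smallest of the fits that left out a library, at -3.33, and it still passed.

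Nans, the synthase that builds sialic acid phosphate, was at 26.0, 24.9 and 19.96 FPKM in controls and at 16.7, 13.0, 14.98 and 16.2 FPKM in Foxl2-LsL libraries. The groups did not overlap, and Nans fell 1.55-fold (log2 fold change -0.60, SE 0.12, limma adjusted p 0.00620). Gne, whose product makes the precursor of that step and sets its rate, did not pass, at 3.86 to 4.98 FPKM in controls and 4.55 to 4.96 FPKM in Foxl2-LsL libraries. Cmas, which activates sialic acid to its CMP form in the nucleus, did not pass either, at 15.4 ± 1.39 and 14.8 ± 1.53 FPKM. Nanp, the phosphatase between synthesis and activation, was listed at 0.069 to 0.227 FPKM in all libraries. Its exons overlap those of Ninl on the same strand in GENCODE M21, so its fragments may not be fully assigned to it.

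**Figure D2:**
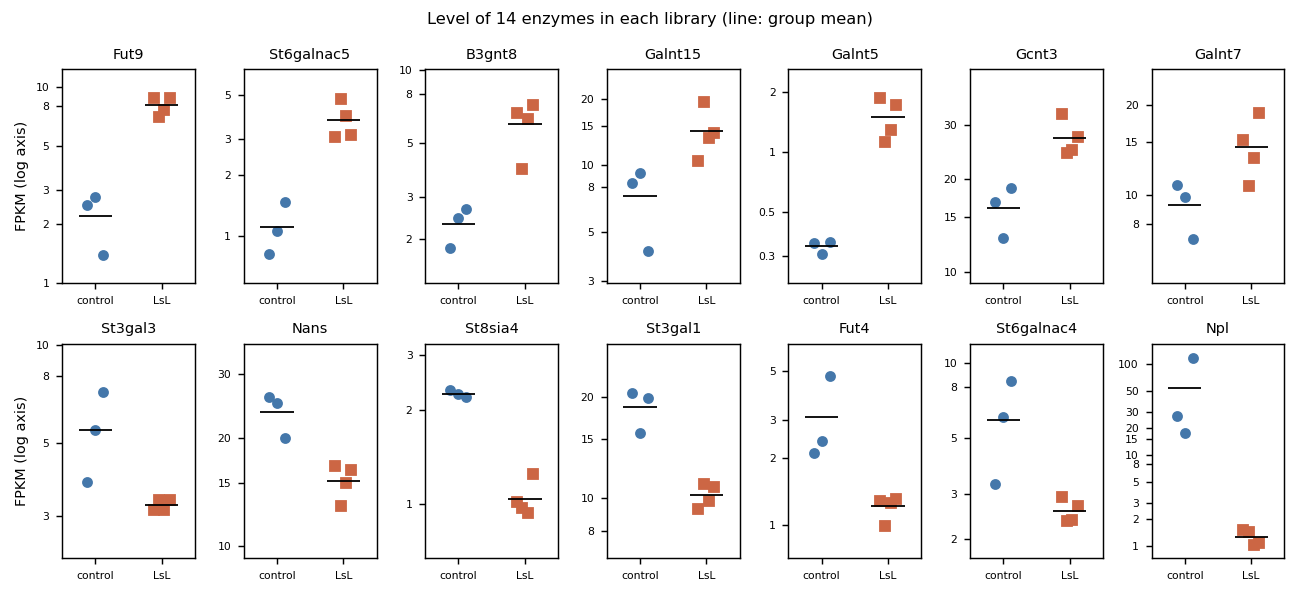
Each panel shows FPKM (log axis) of 1 of the 14 enzymes that passed the threshold with a log2 fold change of at least 0.5 in size, with circles for the 3 controls, squares for the 4 Foxl2-LsL libraries and lines at the group means. The groups are apart in every panel but that of Galnt7, where control 1 (10.8 FPKM) and Foxl2-LsL 2 (10.8 FPKM) meet.

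The GALNT enzymes choose where O-glycans start. Of 16 listed, 12 were tested: 4 rose, 2 fell and 6 did not pass. The 2 that fell had the highest control means of the family and are widely expressed enzymes. Galnt1 was at 27.2, 27.8 and 30.1 FPKM in controls and at 23.7, 20.6, 22.7 and 23.8 FPKM in Foxl2-LsL libraries, a log2 fold change of -0.31 (limma adjusted p 0.0142). Galnt2 was at 20.9, 21.2 and 19.9 FPKM against 15.6, 16.4, 16.7 and 16.0 FPKM, a log2 fold change of -0.34 (limma adjusted p 0.00428). Both changes were small, the libraries of each group were close together, and the groups did not overlap.

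Galnt5 had the largest fold rise of the tested GALNT genes. It was at 0.350, 0.307 and 0.352 FPKM in controls and at 1.86, 1.13, 1.29 and 1.72 FPKM in Foxl2-LsL libraries, a 4.46-fold difference of means. At this level the pseudocount matters: the log2 fold change was 0.89 (SE 0.13, limma adjusted p 0.00210), 1.85 with a pseudocount of 0.1 and 2.15 by limma-voom on recovered fragments. Galnt5 passed the filter only through the Foxl2-LsL group, and fell below it in each fit without one of those libraries.

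Galnt15 was at 8.35, 9.24 and 4.10 FPKM in controls and at 10.5, 19.4, 13.3 and 13.97 FPKM in Foxl2-LsL libraries. Its groups did not overlap, with control 4 lowest and Foxl2-LsL 2 highest (log2 fold change 0.93, SE 0.27, limma adjusted p 0.0297). Without control 4 the log2 fold change was 0.61, and the call was lost without Foxl2-LsL 2, 3 or 4 (limma adjusted p 0.0634 to 0.0645). Galnt7, which prefers peptides that already carry a sugar, was at 10.8, 9.89 and 7.14 FPKM against 15.3, 10.8, 13.3 and 18.8 FPKM. The groups of Galnt7 touched, and its rise (log2 fold change 0.59, SE 0.19, limma adjusted p 0.0444) was lost without control 2 or 4 or Foxl2-LsL 1, 3 or 4 (limma adjusted p 0.0783 to 0.111). Galnt4, also an enzyme that acts on glycosylated peptides, was at 4.45, 5.05 and 5.83 FPKM against 7.44, 6.16, 6.26 and 7.71 FPKM (log2 fold change 0.37, limma adjusted p 0.0327). It lost its call without control 1 or 2 or Foxl2-LsL 1 or 4 (limma adjusted p 0.0764 to 0.0933), and its exons overlap those of Poc1b on the same strand in GENCODE M21.

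Among the 6 GALNT genes that did not pass, Galnt12 was at 13.0, 10.2 and 4.70 FPKM in controls and 10.7 to 17.8 FPKM in Foxl2-LsL libraries, with overlapping groups. Galnt16, at 4.64 ± 1.07 and 3.27 ± 0.362 FPKM, had groups that did not overlap but a limma adjusted p of 0.0536. Galnt3, Galnt10, Galnt11 and Galnt18 had group means between 5.40 and 18.5 FPKM, and their groups overlapped. The summed level of the 16 genes was 123 to 133 FPKM in controls and 124 to 143 FPKM in Foxl2-LsL libraries, so the family as a whole overlapped between the groups. Its composition differed. Galnt1 made up 20.8% to 24.5% of the sum in controls and 16.5% to 17.9% in Foxl2-LsL libraries, and Galnt2 15.9% to 16.7% against 11.2% to 13.2%. Galnt15 made up 3.34% to 6.92% against 7.70% to 15.6%, and Galnt7 5.82% to 8.64% against 8.65% to 13.1%. No range of these 4 shares overlapped between the groups, although the Galnt7 ranges touched. The share of Galnt16 lay apart too (3.03% to 4.38% against 2.20% to 2.89%). The shares of Galnt3, Galnt10, Galnt11, Galnt12 and Galnt18 overlapped.

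**Figure D3:**
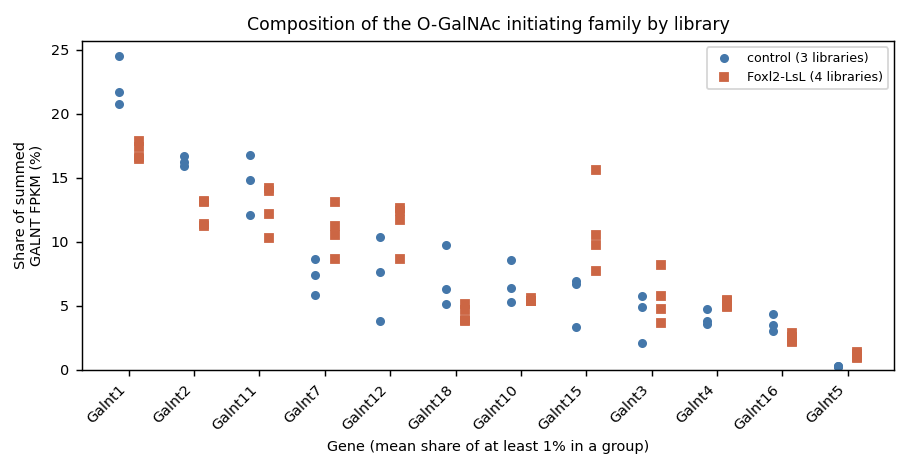
The share of each gene in the summed GALNT FPKM (y axis, percent) is shown for every library, for genes (x axis) with a mean share of at least 1% in a group. Galnt1, Galnt2 and Galnt16 take smaller shares and Galnt15, Galnt7, Galnt4 and Galnt5 larger shares in every Foxl2-LsL library (squares) than in any control (circles).

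Of 5 GCNT genes, the branching enzymes, 3 were tested, Gcnt3 and Gcnt1 rose, and Gcnt2 did not pass. Gcnt3, the mucin-type enzyme that makes core 2 and core 4 branches, was at 16.8, 12.8 and 18.7 FPKM in controls and at 32.5, 24.3, 24.8 and 27.4 FPKM in Foxl2-LsL libraries. All Foxl2-LsL libraries lay above all controls, a 1.69-fold rise (log2 fold change 0.73, SE 0.15, limma adjusted p 0.00645). Gcnt1, the core 2 enzyme of most cell types, was at 12.4, 11.6 and 9.56 FPKM against 15.5, 13.2, 13.96 and 16.1 FPKM (log2 fold change 0.37, limma adjusted p 0.0277). Its groups did not overlap, but the call was lost without control 2 or 4 or Foxl2-LsL 1, 3 or 4 (limma adjusted p 0.0524 to 0.0730). Gcnt2, which branches longer lactosamine chains into the I antigen, did not pass, at 11.7 ± 2.15 FPKM (SD, n = 3) in controls and 10.8 ± 1.19 FPKM (SD, n = 4).

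Extension enzymes rose in 2 of 6 tested members. B3gnt8, which forms an active complex with B3gnt2 and lengthens lactosamine chains, was at 1.84, 2.44 and 2.68 FPKM in controls and at 6.67, 3.89, 6.28 and 7.21 FPKM in Foxl2-LsL libraries. It rose 2.59-fold without overlap (log2 fold change 1.06, SE 0.19, limma adjusted p 0.00413). Its exons overlap those of Bckdha on the opposite strand, and the use of strand in counting is not given in the sources used here. Opposite-strand overlaps were also annotated for the called members Galnt5 (with Ermn), Galnt7 and Nans (with Trim14). Same-strand overlaps were annotated for Galnt2 and B3gnt2. B3gnt2, the main enzyme of lactosamine extension, was at 17.2, 16.1 and 12.0 FPKM against 21.1, 19.6, 21.04 and 20.1 FPKM (log2 fold change 0.43, limma adjusted p 0.0231). Control 4 was the lowest library, and without it the log2 fold change of B3gnt2 was 0.28. The call was lost without Foxl2-LsL 1, 3 or 4 (limma adjusted p 0.0515 to 0.0608).

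B3gnt5, which starts lacto-series glycolipids, was high in a single library. It was at 5.27 FPKM in control 4, at 0.382 and 0.415 FPKM in controls 1 and 2, and at 0.447 to 0.576 FPKM in the Foxl2-LsL libraries (limma adjusted p 0.347). It passed the filter only through control 4. B3gnt3, B3gnt7 and B3gnt9, which extend core 1, keratan sulfate and related chains, did not pass and had overlapping groups, with group means of 2.65 to 12.6 FPKM.

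Of 20 sialyltransferases listed, 13 were tested, 5 fell, 1 rose and 7 did not pass. The 46.2% that passed was near the 40.6% of all tested genes, which also fell more often than they rose. The ST3GAL enzymes, which add sialic acid to galactose, held 3 of the falls among 6 tested members. St3gal1, which caps the galactose of core 1, was at 20.6, 15.7 and 19.9 FPKM in controls and at 9.30, 11.02, 9.80 and 10.9 FPKM in Foxl2-LsL libraries. The groups lay well apart, and St3gal1 fell 1.83-fold (log2 fold change -0.80, SE 0.11, limma adjusted p 0.00146). St3gal2, which acts on the same core and on gangliosides, was at 7.66, 8.09 and 10.1 FPKM against 6.49, 6.32, 5.53 and 6.53 FPKM (log2 fold change -0.41, limma adjusted p 0.0185). Its call was lost without Foxl2-LsL 3, where the log2 fold change was -0.36 (limma adjusted p 0.0504).

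St3gal3, which sialylates lactosamine ends, was at 3.83, 5.48 and 7.16 FPKM in controls and at 3.14, 3.37, 3.13 and 3.36 FPKM in Foxl2-LsL libraries. The Foxl2-LsL libraries were close together and below every control, while the controls were spread (log2 fold change -0.58, SE 0.16, limma adjusted p 0.0255). That call was lost without control 2 or Foxl2-LsL 1, 3 or 4 (limma adjusted p 0.0535 to 0.0764). St3gal4 and St3gal6, which act on similar chains, and St3gal5, the GM3 ganglioside synthase, did not pass and overlapped, with group means of 4.30 to 10.5 FPKM.

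Core 1 is a substrate of both St3gal1 and the core 2 enzymes, so their levels were set side by side, a pairing chosen after the values were seen. The ratio of Gcnt3 to St3gal1 in FPKM was 0.818, 0.819 and 0.940 in controls and 3.49, 2.20, 2.53 and 2.53 in Foxl2-LsL libraries. St3gal1 was thus the higher of the pair in every control and Gcnt3 in every Foxl2-LsL library. The ratio of Gcnt1 to St3gal1 was 0.480 to 0.742 in controls and 1.20 to 1.66 in Foxl2-LsL libraries. Both branching genes had already been called higher and St3gal1 lower, with groups apart, so these ratios are not further evidence. Whether the enzymes share cells cannot be read from whole tissue.

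The ST6GALNAC enzymes, which add sialic acid to the GalNAc of O-glycans or of gangliosides, had 1 riser and 1 faller among 5 tested members. St6galnac5, which acts on gangliosides, was at 0.813, 1.05 and 1.46 FPKM in controls and at 3.08, 4.78, 3.94 and 3.17 FPKM in Foxl2-LsL libraries. It rose 3.38-fold without overlap (log2 fold change 1.17, SE 0.16, limma adjusted p 0.00153), and by limma-voom on recovered fragments the log2 fold change was 1.77. Its exons overlap those of Pigk on the opposite strand. St6galnac4, which completes disialylated core 1, was at 3.29, 6.05 and 8.44 FPKM against 2.93, 2.34, 2.36 and 2.69 FPKM. Control 1 lay just above the Foxl2-LsL range and control 4 far above it (log2 fold change -0.88, SE 0.24, limma adjusted p 0.0221). The call of St6galnac4 was lost without control 2 or Foxl2-LsL 2 or 3 (limma adjusted p 0.0525 to 0.0734).

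St6galnac2, the most abundant sialyltransferase of these libraries, did not pass, at 28.0 ± 5.04 FPKM (SD, n = 3) in controls and 35.9 ± 3.06 FPKM (SD, n = 4, limma adjusted p 0.0511). St6galnac3 and St6galnac6 did not pass either and overlapped. St6galnac4 and St6galnac6 are neighbours on chromosome 2 on the same strand, with 10 bases between their annotated ends in GENCODE M21. St6galnac6 was at 11.4 ± 2.37 FPKM (SD, n = 3) in controls and 11.4 ± 0.619 FPKM (SD, n = 4), and the difference between the 2 genes was not tested. St6galnac5 and St6galnac3 are neighbours on chromosome 3, 216.0 kilobases apart, and St6galnac2 and St6galnac1 on chromosome 11, 70.2 kilobases apart.

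St6gal1, the main enzyme of terminal sialic acid on N-glycans, was at 30.2, 19.7 and 15.2 FPKM in controls and at 15.5, 9.39, 9.43 and 14.7 FPKM in Foxl2-LsL libraries. The groups met at control 4 and Foxl2-LsL 1, and the gene missed the threshold (log2 fold change -0.75, SE 0.26, limma adjusted p 0.0509), though 5 of 17 alternatives called it. Among the ST8SIA enzymes, which join sialic acids to one another, St8sia4 alone was tested. This polysialic acid synthase was at 2.33, 2.26 and 2.204 FPKM in controls and at 1.01, 0.970, 0.940 and 1.247 FPKM in Foxl2-LsL libraries. Both groups were tight and far apart, a 2.17-fold fall (log2 fold change -0.68, SE 0.10, limma adjusted p 0.00170). With a pseudocount of 0.1 the log2 fold change was -1.06, and by limma-voom it was -1.11.

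Fucosyltransferases changed in opposite directions in 2 enzymes that can make the same epitope. Fut9 and Fut4 both add fucose in alpha-1,3 linkage and build Lewis x. Fut9 was at 2.49, 2.73 and 1.397 FPKM in controls and at 8.79, 7.03, 7.62 and 8.81 FPKM in Foxl2-LsL libraries. Every Foxl2-LsL library was above every control, a 3.65-fold rise (log2 fold change 1.52, SE 0.16, limma adjusted p 0.000666). Fut4 was at 2.13, 2.41 and 4.71 FPKM against 1.28, 0.988, 1.26 and 1.31 FPKM, a 2.55-fold fall of the mean (log2 fold change -0.83, SE 0.21, limma adjusted p 0.0151). Control 4 was the highest library for Fut4 and the lowest for Fut9. The ratio of Fut9 to Fut4 was 1.17, 1.14 and 0.296 in controls and 6.06 to 7.12 in Foxl2-LsL libraries. The pair was chosen after the values were seen, from genes already called in opposite directions, so the ratio is not further evidence. Without control 4, Fut4 had a log2 fold change of -0.56 and still passed.

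Fut2, which makes the H antigen of mucosal surfaces, varied widely within both groups. It was at 10.3, 7.58 and 14.7 FPKM in controls and at 18.5, 6.27, 10.2 and 20.4 FPKM in Foxl2-LsL libraries (limma adjusted p 0.654). Foxl2-LsL 1 and 4, which were high for Fut2, had the 2 highest sums of estrogen response markers. Control 4, the highest control for Fut2, had the lowest such sum of all libraries. These libraries were picked after their values were seen, and a link was not tested. Fut8, the core fucose enzyme of N-glycans, and Fut10 and Fut11 did not pass, with group means of 2.01 to 10.7 FPKM. The summed level of the 8 fucosyltransferases overlapped between the groups, at 34.2 to 45.8 and 35.7 to 51.7 FPKM.

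The sialidases, which remove sialic acid, showed 0 calls among 2 tested members by limma, and 0 at an unadjusted p under 0.05. Neu1, the lysosomal enzyme, was at 14.6 ± 2.86 FPKM (SD, n = 3) in controls and 16.0 ± 1.52 FPKM (SD, n = 4). Neu3, the enzyme of the plasma membrane, lay between 1.504 and 2.205 FPKM in all libraries, with overlapping groups. By limma-voom and in each other alternative that tested them, Neu1 and Neu3 also missed the threshold.

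**Figure D4:**
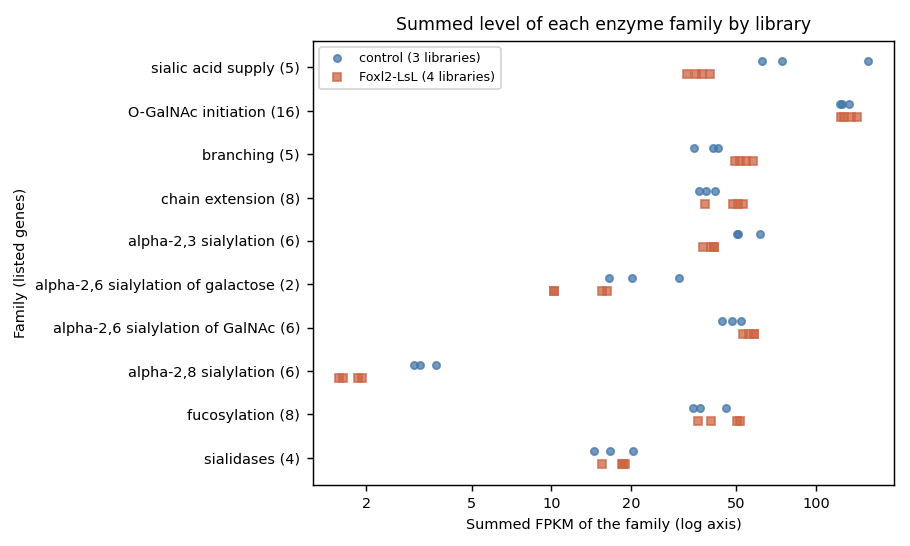
Summed FPKM of each family (x axis, log scale; listed genes in brackets on the y axis) is shown for the 3 controls (circles) and 4 Foxl2-LsL libraries (squares). The groups do not overlap for sialic acid supply, branching and the 4 sialyltransferase families, and overlap for GALNT, chain extension, fucosylation and sialidases. The sums for alpha-2,6 sialylation of galactose nearly meet, at 16.5 FPKM in control 4 and 16.3 FPKM in Foxl2-LsL 1.

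The branching genes summed to 34.7 to 42.6 FPKM in controls and 49.3 to 57.8 FPKM in Foxl2-LsL libraries. The ST3GAL genes summed to 50.4 to 61.2 FPKM against 37.4 to 41.3 FPKM, and the ST8SIA genes to 3.03 to 3.68 FPKM against 1.58 to 1.93 FPKM. ST6GAL sums were 16.5 to 30.3 FPKM against 10.2 to 16.3 FPKM and nearly met. St6gal1, which made up 91.9% to 99.6% of them, had overlapping groups and did not pass. The ST6GALNAC sum was 44.3 to 52.2 FPKM against 53.0 to 58.2 FPKM. St6galnac2, which alone made up 50.3% to 69.6% of it, had overlapping groups and did not pass. The sialic acid supply sum was 62.3 to 157 FPKM against 32.5 to 39.8 FPKM, of which Npl was 28.0% to 74.8% in controls and 2.93% to 4.45% in Foxl2-LsL libraries. The difference of the supply sums, Foxl2-LsL minus control, was -61.7 FPKM over all libraries and -32.1 FPKM without control 4. These sums have no test.

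The remaining 20 members were below a mean of 1 FPKM and are described apart. In the fit without a filter on low values, 6 of the 19 with a value passed, 3 higher and 3 lower, against 27.6% of the 21011 genes then tested. The largest of these was St6galnac1, the synthase of the sialyl-Tn antigen. It was at 0.145, 0.280 and 0.248 FPKM in controls and at 1.86, 0.770, 1.42 and 1.997 FPKM in Foxl2-LsL libraries, a 6.74-fold difference of means on 106 and 836 fragments (limma adjusted p 0.00846 in that fit). B3gnt6, the core 3 synthase, was at 0.0727 ± 0.0186 FPKM (SD, n = 3) in controls and 0.215 ± 0.0565 FPKM (SD, n = 4), and Gcnt4, another core 2 enzyme, at 0.183 ± 0.0385 and 0.360 ± 0.0693 FPKM. Both were higher in that fit (limma adjusted p 0.0138 and 0.0184). Galnt14 (0.333 ± 0.149 and 0.0775 ± 0.0119 FPKM), Neu2, the cytosolic sialidase (0.547 ± 0.0853 and 0.258 ± 0.0688 FPKM), and St8sia5 (41 fragments over the controls and 5 over the Foxl2-LsL libraries) were lower. Their limma adjusted p values were 0.0187, 0.00945 and 0.0197. All 6 had groups that did not overlap, but they were picked because they passed, so this is not further evidence. The share of such genes over all genes of that fit was not computed.

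Of the other 14, Galnt6 was the most abundant, at 0.490 ± 0.331 and 0.906 ± 0.455 FPKM. St6gal2 was at 1.33 FPKM in control 4, at 0.134 and 0.394 FPKM in controls 1 and 2, and at 0.763 to 0.819 FPKM in Foxl2-LsL libraries. St8sia2, the other polysialic acid synthase, was at 0.692 ± 0.397 and 0.550 ± 0.143 FPKM. Fut1, the H antigen enzyme whose gene lies 27.5 kilobases from Fut2 on chromosome 7, was at 0.278 ± 0.146 and 0.119 ± 0.0413 FPKM. B3gnt4, Fut7, Galnt9, Galnt13, Gcnt7, Nanp, St8sia1 and St8sia6 stayed at or below 0.522 FPKM in every library. Neu4 had at most 1 fragment in any library. St8sia3 had 0, and 3 fragments of it would be 0.00710 to 0.00999 FPKM.

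Genes that supply or share these pathways were taken from lists of names. Of the 70 tested genes of 6 such lists, 15 rose and 17 fell, 45.7% against 40.6% of all tested genes. The strongest rise in the sugar nucleotide list was that of Gmds, the first enzyme of GDP-fucose synthesis. Gmds was at 16.7, 17.6 and 14.6 FPKM in controls and at 58.1, 41.4, 56.1 and 57.0 FPKM in Foxl2-LsL libraries, without overlap (log2 fold change 1.64, SE 0.13, limma adjusted p 0.000249). Fpgt, which makes GDP-fucose from salvaged fucose, rose (log2 fold change 0.82), whereas Fuk, the fucose kinase just before it, fell (-0.59). Tsta3, which completes GDP-fucose synthesis, and Slc35c1, the GDP-fucose transporter of the Golgi, did not pass. Those 2, and C1galt1c1 and C1galt1 below, were named after their values were seen. In that list 5 of 20 tested genes rose and 3 fell. Over the 6 lists the count of genes higher was 8 without Foxl2-LsL 4 and 9 without Foxl2-LsL 1, and the count lower was 11 without control 2.

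Among glycosyltransferases outside the rule, 1 of 16 tested genes rose and 7 fell. C1galt1c1, the chaperone of the core 1 synthase, was the riser (log2 fold change 0.27, limma adjusted p 0.0358), and C1galt1 itself did not pass, at 3.47 to 4.86 FPKM over all libraries. The largest falls were those of B4galnt1, the GM2 ganglioside synthase (9.13 ± 1.23 to 2.40 ± 0.681 FPKM), B4galt6, a lactosylceramide synthase (6.06 to 8.03 FPKM in controls, 2.45 to 2.77 FPKM in Foxl2-LsL libraries), and B4galnt4 (3.40 ± 1.35 to 1.41 ± 0.277 FPKM). On the log2 scale they differed by -1.59, -1.13 and -0.83 (limma adjusted p 0.000629, 0.000368 and 0.0190), and their groups did not overlap.

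Cell type and hormone markers were read in the same comparison, and their part in the enzyme changes was not tested. Their counts are to be read against all tested genes, of which 40.6% passed, 16.7% higher and 23.9% lower. All 7 proliferation markers fell, and their summed FPKM was 157 to 307 in controls and 54.0 to 81.5 in Foxl2-LsL libraries. Uterine gland markers fell in 3 of 3 tested genes, from a sum of 60.6 to 95.3 to one of 19.3 to 23.6 FPKM, with Prss28 and Prss29 at or below 0.168 FPKM in all libraries. Estrogen response markers rose in 6 of 8, from a sum of 198 to 442 to one of 1080 to 2360 FPKM, and progesterone response markers fell in 5 of 10, from 205 to 383 to 156 to 174 FPKM. Control 4 had the lowest estrogen sum and the highest progesterone sum of the controls. It was also the highest of the 7 libraries in 17 tested members, among them Npl, Fut4, B3gnt5 and St6galnac4. In 9 it was the lowest, among them Fut9, Galnt15 and B3gnt2. The named genes were picked after their values were seen, and a link to the hormone markers was not tested. Simple epithelium markers rose in 3 of 9 and overlapped as a sum (646 to 1500 and 1190 to 1910 FPKM). Endothelial markers fell in 5 of 6, and macrophage and leukocyte markers rose in 3 of 7. Stroma markers fell in 3 of 7 and rose in 1, and smooth muscle markers rose in 2 of 6, with overlapping sums in both lists. Adipose markers had 0 calls among 4 tested genes by limma and 0 at an unadjusted p under 0.05, but their sum varied widely between libraries, at 0.136, 6.78 and 69.4 FPKM in controls and at 2.03, 94.5, 190 and 14.2 FPKM in Foxl2-LsL libraries.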

How the data were processed

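Uterus RNA was isolated with TRIzol before Illumina library preparation (labels' protocols). The authors deposited 1 table of FPKM values, with 1 column per library, and the length of each gene in bases as another value, per the file headers. The submitters' processing notes name mm10, STAR 2.5.2b, featureCounts 1.5.0-p1, Subread and DESeq2 1.12.4 without stating their roles. Annotation and strand use are not given in the sources used here.

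Groups came from the sample titles. Genes whose mean FPKM reached 1 (and Foxl2) were tested on log2(FPKM + 1) with limma 3.58.1 in R 4.3.3, with an intensity trend and no block for replicate number. Members past an adjusted p of 0.05 are given in every library, with full statistics from a log2 fold change of 0.5. From each pathway list up to 3 called genes were named, and some are not reported here. The members, lists and rules were chosen with earlier results of these data known. Fragments were recovered from FPKM times length: 100% of 1647 to 1819 low values per library lay within 0.1 of a whole number, and the denominators were 47800000 to 67300000 fragments. The limma step was tested on simulated data with far fewer changed genes than were called here, and with changes larger than most of those reported. That test checks the working of the step and does not bear on the calls of these genes. Alternatives covered the pseudocount, filters, scalings, variance models, limma-voom, the replicate block and each library left out. Gene positions and overlaps came from GENCODE M21 (GRCm38, the same build as mm10), and promoter windows from RefSeq. The comparison of member proteins that had been planned was not made here. Tables used pandas 2.3.3 and numpy 2.4.6 under Python 3.11.15, and figures matplotlib 3.10.9. Counting errors cover counting only, since PCR copies are not independent molecules.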

Additional observations from a re-analysis of the deposited data

Results flagged for a closer look

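In groups of 4 libraries, a library far from the other 3 was looked for in each of the 65 members with any spread among the Foxl2-LsL libraries, and 2 were found. Chance alone gives about 1 in 20. Galnt11, a GALNT enzyme that did not pass the threshold, was at 13.993 FPKM in Foxl2-LsL 1 and at 17.4 to 17.7 FPKM in the other 3. Neu4, a sialidase, was at 0.005 FPKM in Foxl2-LsL 2 and at 0 in the other 3, which is a single fragment.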

How the results depend on the processing

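Of the 20 members past the threshold, 0 reversed direction under the 17 alternatives, and 11 kept their call in each alternative that tested them. The other 9 lost it in at least 1. With array weights 16 members were lower and 12 higher. When libraries 1, 2 and 4 were fitted with a replicate block, 4 members were higher and 6 lower, 3240 genes passed in all, and 7 pathway list genes rose and 9 fell. Deviations of same-numbered libraries correlated at 0.228, -0.0306 and -0.112, so the numbers are not treated as pairing the libraries. Leaving out a library at a time, members higher ranged from 4 to 12, members lower from 7 to 16, all genes from 3840 to 5318, pathway genes higher from 8 to 14 and lower from 11 to 15, and Foxl2 from -0.10 (without control 1) to 0.28 (without control 2), with -0.01 without Foxl2-LsL 4. With array weights Foxl2 was at -0.15. No fit called Foxl2, and the cause of these moves was not tested. Rescaling or leaving out a library moved the difference of each family sum between the groups by less than 1 pooled SD. Some still moved by over 1.5 times: the ST6GAL sum differed by -9.26 FPKM over all libraries and -5.27 FPKM without control 1, and the GALNT, fucosylation and sialidase sums, whose groups overlapped, ranged from 2.07 to 8.75, 3.31 to 9.19 and -0.563 to 2.39 FPKM. Depth limits the members below 1 FPKM, of which Neu4 and St8sia3 had too few fragments for a fold.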

Other observations

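Genes of other steps of glycan biology were also measured, and 40.6% of all tested genes is the share to read the counts against. Among glycan sulfotransferases, 2 of 6 tested genes rose and 2 fell. Chst10, which makes the HNK-1 sulfated epitope, had 3.41 ± 1.97 FPKM (SD, n = 3) in controls and rose to 13.1 ± 2.71 FPKM (SD, n = 4), and Gal3st1, the sulfatide synthase, from 3.65 ± 0.553 to 7.72 ± 0.797 FPKM. Chst4, which sulfates selectin ligands, fell from 2.62 ± 0.771 to 0.962 ± 0.631 FPKM. In the lysosomal list 4 of 11 rose and 2 fell.

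Carriers and readers of these sugars made up another pair of lists. Of 8 tested mucins and sialomucins, 3 fell and 0 rose: Podxl (34.9 ± 3.28 to 12.9 ± 1.09 FPKM), Cd34 (115 ± 49.8 to 54.6 ± 6.56 FPKM) and Emcn (30.1 ± 3.65 to 18.4 ± 1.58 FPKM), which are sialomucins. Muc1 and Muc4, mucins of the luminal surface, did not pass, with group means of 35.9 and 68.9 FPKM and of 7.52 and 12.3 FPKM. Muc20 did not pass either (limma adjusted p 0.0531), at 3.68 ± 2.47 and 8.58 ± 2.62 FPKM, with groups that did not overlap. Muc1, Muc4 and Muc20 were named after their values were seen. Among lectins 3 of 9 rose: Siglec15 (0.442 ± 0.569 to 2.51 ± 0.118 FPKM), Lgals3 (25.1 ± 12.3 to 44.9 ± 8.32 FPKM), whose groups overlapped, and Siglec1, a macrophage receptor for sialic acid (0.615 ± 0.0926 to 1.32 ± 0.246 FPKM). Siglec15 and Siglec1 had control means below 1 FPKM and passed the filter on low values only through the Foxl2-LsL group, so the count of lectins supports nothing about the list. Leukocyte markers and endothelial markers moved alongside, as given above, and their part was not tested.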
